A study of Mus musculus with 15 samples.

Results

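KD4 is 1 of 2 *Smarcd1* knockdown lines made in 6DT1, a mouse mammary cancer cell line, and here its open chromatin was set against that of the scramble line Scr. Cells of the KD4 line carry a lentiviral short hairpin RNA against *Smarcd1* (genotype knockdown in the labels), and cells of the Scr line carry a scramble hairpin (genotype wildtype). Both were kept under puromycin, grown as a monolayer on plastic in DMEM with serum, and left untreated. The 6 libraries compared are 3 of KD4 and 3 of Scr, of 15 in the series. The other 9 come from a second knockdown line (KD6), a line that overexpresses *Smarcd1* (OE) and its empty vector control (EV), both under blasticidin, and they stayed out of the fit. Each line is a single transduced line, so a difference between KD4 and Scr cannot be told apart from a difference between those 2 lines that does not depend on the hairpin.

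SMARCD1, also called BAF60A, is an accessory subunit of the BAF (SWI/SNF) complexes, which use ATP to slide or evict nucleosomes and so open promoters and enhancers to transcription factors. In ATAC-seq a transposase inserts sequencing adapters into DNA that nucleosomes leave free, so the number of fragments in a region is read as its accessibility. Open regions at active gene starts are often wide, whereas distal elements are often narrow.

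The deposited table holds 44598 regions of the mouse assembly mm39 with 1 estimated fragment count per library. Totals were 17339305 to 21216310 counts in KD4 and 16176521 to 19152961 in Scr. Replicates were not equally close. KD4 replicates 2 and 3 differed by 3.56 times sampling noise, and KD4 replicate 1 stood apart from them at 9.72 and 12.5 times. The Scr libraries differed from each other by 9.02 to 9.71 times. Regions are given by position only, because no annotation of mm39 was used here, and the *Smarcd1* locus and markers of cell type were not analysed.

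Compared with Scr, KD4 had more higher than lower regions. Of 43933 regions tested, 162 were higher in KD4 than in Scr (0.369%) and 39 were lower (0.0888%), by edgeR's quasi-likelihood test at a false discovery rate (FDR) of 0.05. The median log2 fold change of the higher regions was 1.24, with a range of 0.60 to 3.57, and that of the lower regions was -0.79, with a range of -1.17 to -0.57. Over all regions tested the median was -0.01. A change of over 2-fold was reached by 103 of the higher and 7 of the lower regions. The higher regions reached down to low levels, with 73 of them under 5 CPM (counts scaled to a common library size), whereas each of the 39 lower regions had at least 7.85 CPM. In all 201 regions the 3 KD4 values lay on 1 side of the 3 Scr values, a separation also seen at 8.92% of all tested regions with KD4 above and at 7.28% with KD4 below. At an unadjusted p under 0.05 edgeR gave 2819 higher and 1745 lower regions.

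The number of calls depended on single libraries. With KD4 replicate 1 left out, edgeR called 236 higher and 95 lower regions. Leaving out KD4 replicate 2 gave 32 higher and 2 lower calls, and leaving out KD4 replicate 3 gave 74 and 12. For the Scr libraries there were 19 higher and 4 lower calls when replicate 1 was dropped, 41 and 7 for replicate 2, and 13 and 2 for replicate 3. Of the 201 regions, 11 higher and 2 lower ones passed in each of these 6 fits, and 12 higher and 3 lower ones in none. The excess of higher calls was also tied to how regions were drawn. Over the regions that were defined for the OE and EV lines, the same 6 libraries gave 33 higher and 50 lower calls of 37703 tested.

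**Figure D1:**
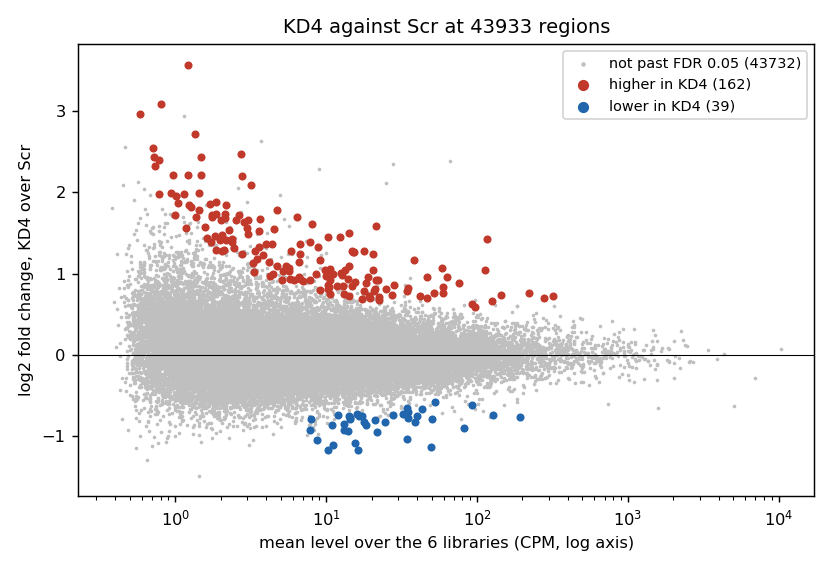
Log2 fold change of KD4 over Scr (y axis) against the mean level over the 6 libraries in CPM (x axis, log scale) for 43933 tested regions, 1 point per region. The 162 higher regions (red) run from 0.58 to 319.7 CPM, and the 39 lower regions (blue) start at 7.85 CPM and reach no further than -1.17.

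The 10 leading higher regions with at least 5 CPM changed by 1.17 to 1.70 on the log2 scale, and 8 of them were wider than 800 bp. The one with the smallest p lies at chr10:18731412-18732812. It had 171, 158 and 176 CPM in KD4, against 71.7, 63.6 and 53.3 CPM in Scr. The lowest KD4 library was above 2 times the highest Scr library, with a log2 fold change of 1.42 ± 0.132 (standard error SE, edgeR FDR = 0.00158). KD6, OE and EV averaged 144 CPM ± 24.8, 167 CPM ± 5.80 and 193 CPM ± 26.7 (SD, n = 3 each), so at this region Scr stood apart from all 4 other lines.

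The widest called region, 3379 bp at chr6:38669041-38672419, had 39.0, 28.9 and 28.7 CPM in KD4 and 11.5, 10.4 and 10.2 CPM in Scr. Here the KD4 libraries 2 and 3 were nearly equal and replicate 1 was higher, with no overlap with Scr (log2 fold change 1.58 ± 0.154 SE, edgeR FDR = 0.00158). KD6 had 24.9 CPM ± 3.32, OE 16.1 CPM ± 1.48 and EV 15.7 CPM ± 1.89 (SD, n = 3 each), between KD4 and Scr. Its neighbour of 2182 bp at chr6:38665830-38668011 had 25.6, 19.0 and 17.8 CPM in KD4 and 7.84, 7.45 and 6.83 CPM in Scr (log2 fold change 1.49, edgeR FDR = 0.00349). Another region of chromosome 6, at chr6:99602338-99604010, had 17.6, 18.0 and 18.7 CPM in KD4 and 5.93, 8.12 and 5.71 CPM in Scr. The means were 11.3 CPM in KD6, 8.74 CPM in OE and 9.59 CPM in EV. The KD4 libraries were close together there, above every library of the 4 other lines, and the log2 fold change was 1.45 ± 0.164 SE (edgeR FDR = 0.00349).

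The leading regions were chosen for their difference from Scr. The share of all tested regions with KD4 beyond all 4 other lines was not counted. At 4 of the 10 leading higher regions every KD4 library lay above every library of the 4 other lines. They are chr6:38669041-38672419, where the margin to KD6 was narrow, chr6:99602338-99604010, and a pair on chromosomes 8 and 10 where EV did not lie above Scr. The region chr8:36145152-36146533 had 14.4, 11.3 and 12.5 CPM in KD4 and 5.19, 4.90 and 5.12 CPM in Scr. The Scr libraries were within 0.3 CPM of each other and the lowest KD4 library was above 2 times the highest of them (log2 fold change 1.33 ± 0.161 SE, edgeR FDR = 0.00452). KD6 had 5.99 CPM ± 0.589, OE 2.39 CPM ± 0.542 and EV 2.7 CPM ± 0.35 (SD, n = 3 each), all below each KD4 library. The region chr10:62023186-62023872 had 7.61, 8.59 and 13.01 CPM in KD4 and 3.27, 2.86 and 2.88 CPM in Scr. KD4 replicate 3 was the highest, and over the alternatives, fits without it or another library included, the log2 fold change was between 1.43 and 1.84 (1.70 ± 0.22 SE with all 6, edgeR FDR = 0.00676). KD6, OE and EV means were 3.24, 3.15 and 2.26 CPM.

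The other leading higher regions were chr1:191328293-191328449, chr1:191353291-191354722, chr1:135298817-135299711 and chr7:89158942-89160004, with log2 fold changes of 1.26, 1.17, 1.27 and 1.61. At chr7:89158942-89160004 the KD4 values were spread, at 12.6, 15.9 and 8.14 CPM, against 3.33, 5.78 and 2.83 CPM in Scr. Its call (FDR = 0.027 from edgeR) held in 3 of the 6 fits without 1 library. The call of chr10:62023186-62023872 held in 4, and the calls of the other 8 leading higher regions held in all 6.

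The 10 leading lower regions changed by -1.17 to -0.79 and were 225 to 661 bp wide. At chr6:72592737-72592961, the lower region with the smallest p, KD4 had 26.6, 32.4 and 34.2 CPM and Scr had 73.2, 63.8 and 67.6 CPM. The groups were far apart, with a log2 fold change of -1.13 ± 0.132 SE (edgeR FDR = 0.00349). KD6 had 59.1 CPM ± 1.93, OE 77.3 CPM ± 1.02 and EV 73.8 CPM ± 1.80 (SD, n = 3 each), so KD4 was the low line among 5. The region chr8:80390429-80390653 had 9.18, 9.97 and 10.8 CPM in KD4 and 19.8, 24.7 and 22.6 CPM in Scr. KD4 was again lowest, with 21.4, 20.9 and 24.2 CPM on average in KD6, OE and EV (log2 fold change -1.16 ± 0.144 SE, edgeR FDR = 0.00481). These were the 2 lower regions whose calls held in each fit without 1 library.

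A pair of neighbouring regions on chromosome 14 differed widely over the 5 lines. At chr14:75466689-75467077 KD4 had 3.89, 7.90 and 7.26 CPM and Scr had 12.97, 17.5 and 12.5 CPM (log2 fold change -1.17 ± 0.229 SE, edgeR FDR = 0.0425). At chr14:75467348-75467758 KD4 had 5.41, 7.81 and 7.78 CPM and Scr had 17.7, 16.0 and 11.6 CPM (log2 fold change -1.10 ± 0.194 SE, edgeR FDR = 0.0282). KD4 replicate 1 was the lowest library at both. KD6 averaged 18.1 and 17.8 CPM, OE 27.7 and 27.7 CPM and EV 29.7 and 33.2 CPM, so Scr itself lay below OE and EV. Their calls held in 1 and 2 of the 6 fits without 1 library.

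At chr5:93538685-93539345, the widest of the lower regions, KD4 had 11.5, 13.3 and 14.6 CPM and Scr had 25.7, 22.5 and 23.3 CPM. No KD4 library reached a library of another line, with 27.9, 26.4 and 25.4 CPM on average in KD6, OE and EV (log2 fold change -0.86, edgeR FDR = 0.0248). A different order was seen at chr1:55483841-55484125, where KD4 had 51.5, 56.5 and 64.3 CPM and Scr had 93.3, 107 and 119 CPM. KD6, OE and EV averaged 70.9, 75.7 and 82.7 CPM there and lay between KD4 and Scr (log2 fold change -0.89, edgeR FDR = 0.0159). At chr11:40563901-40564267, with 36.8 CPM ± 3.97 in KD4 and 63.4 CPM ± 3.83 in Scr (SD, n = 3 each), EV was likewise in between at 50.6 CPM ± 2.37. The 3 remaining regions, chr15:31274019-31274258, chrX:67759987-67760428 and chr9:66045877-66046183, had log2 fold changes of -1.03, -0.80 and -0.83. At each of them every KD4 library lay below every library of the 4 other lines. The same was seen at 9 of the 10 leading lower regions, chr11:40563901-40564267 being the exception. How often it occurs over all tested regions was not counted.

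**Figure D2:**
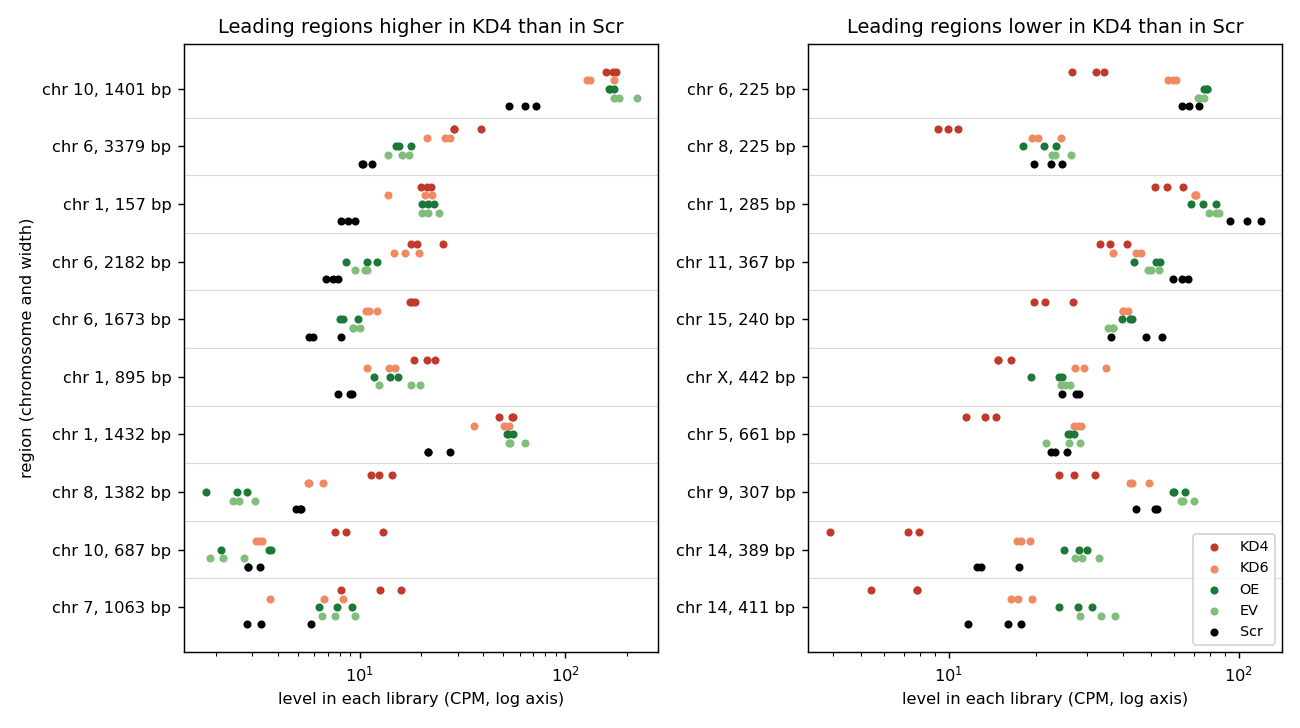
Level in CPM (x axis, log scale) of each of the 15 libraries at the 10 leading higher regions (left) and the 10 leading lower regions (right), named by chromosome and width, with 1 point per library in the order KD4, KD6, OE, EV, Scr from top to bottom. On the left Scr is the low line at many regions, as at the 1401 bp region of chromosome 10, and on the right KD4 is the low line, as at the 225 bp regions of chromosomes 6 and 8.

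As regions were drawn here, higher regions were wide and lower regions were narrow. The median width was 575 bp for the 162 higher regions and 259 bp for the 39 lower regions, beside 304 bp for all regions tested. Regions of at least 800 bp made up 36.4% of the higher regions (59 of 162), none of the lower ones (0 of 39) and 4.32% of all tested. Within that class 3.11% of 1897 regions were called higher, beside 0.143% of the 23082 regions from 200 bp to under 400 bp. Per kilobase the higher regions were the weaker ones, at a median of 9.23 CPM per kb, beside 70.2 CPM per kb in the lower regions and 18.7 CPM per kb over all. The median log2 fold change of all tested regions of at least 800 bp, called or not, was 0.12.

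Wider regions also hold more counts, and the part of the level in the width pattern was not tested. By level alone the share called higher was 0.367% under 5 CPM, 0.374% from 5 to 20 CPM and 0.365% from 20 CPM up. Among regions of at least 800 bp the share was 14.95% under 5 CPM (16 of 107), 4.95% from 5 to 20 CPM (27 of 546) and 1.29% from 20 CPM up (16 of 1244). Over all widths the share called lower rose with level, at 0% under 5 CPM, 0.133% from 5 to 20 CPM and 0.21% from 20 CPM up.

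The median width of the higher calls was 514 bp without KD4 replicate 1, 1299 bp without Scr replicate 1 and 1366 bp without Scr replicate 3. Over the regions defined for OE and EV it was 278 bp, and the lower calls also had a median of 278 bp, so the contrast was absent there. Of those higher calls 1 of 33 was 800 bp or wider, as were 433 of all 37703 regions (1.15%, beside 4.32% here). The median width of the lower calls was 225 to 337 bp in each fit without 1 library. The share of a library's counts that fell in regions of at least 800 bp was 13.8% ± 0.0899 in KD4 and 13.1% ± 0.196 in Scr (SD, n = 3 each), a difference of 0.754 percentage points (two-sided exact permutation test, p = 0.1, the smallest p that 3 against 3 allows). Each KD4 library was above each Scr library.

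**Figure D3:**
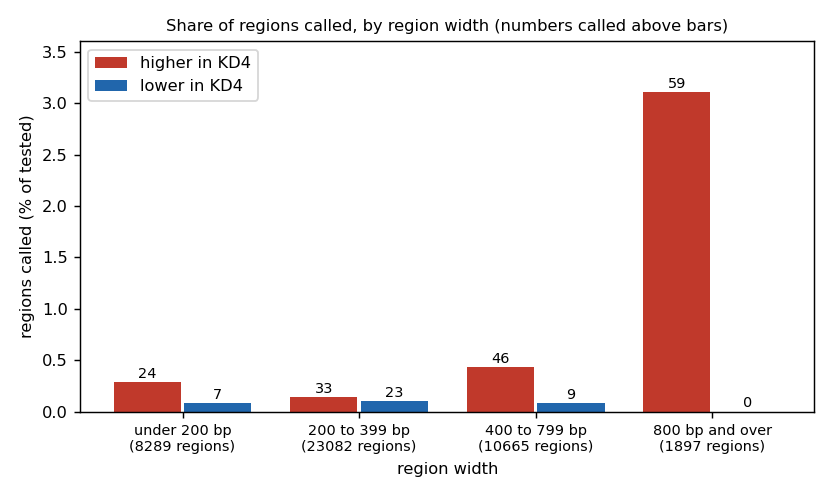
Share of tested regions called higher (red) or lower (blue) in KD4 than in Scr, in % (y axis), for 4 classes of region width (x axis, with the number tested), with the number called above each bar. The share called higher is 3.11% at 800 bp and over and under 0.5% in the other classes, and the share called lower is 0 at 800 bp and over.

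Many of the called regions lay in runs. With runs defined as regions called in 1 direction with gaps of at most 50 kb, 76 of the 162 higher regions (46.9%) fell into 29 runs, 10 of them of at least 3 regions. Of the 39 lower regions, 13 (33.3%) fell into 6 runs. The median run of higher regions spanned 9097 bp and the longest 46821 bp. In 17 of the 29 runs every region tested within the span was called, and the other 12 spans held 24 tested regions that were not called. Of these 24, 23 had a fold change above 0, beside 48.9% of all tested regions. Neighbouring regions can share fragments and signal, so the members of a run are not independent calls.

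The run with the most members covered chr1:191307902-191354722, with 6 of 14 tested regions called. The summed level of the 6 was 141, 139 and 128 CPM in KD4 and 56.1, 73.9 and 61.3 CPM in Scr, with log2 fold changes of 0.89 to 1.26. Sums over called regions cannot overlap between the groups, because KD4 and Scr values were apart at every called region. The 6 had an uneven make-up, with 5 narrow regions of 156 to 230 bp and 1 of 1432 bp at the right end. The 8 regions between them that were not called had log2 fold changes of 0.01 to 0.69. KD6, OE and EV summed to means of 124, 132 and 134 CPM over the 6 regions, near the KD4 mean of 136 CPM and above the Scr mean of 63.8 CPM.

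On chromosome 6, 5 of 7 tested regions in chr6:38664623-38675527 were called, the widest region among them. They summed to 97.4, 70.1 and 67.0 CPM in KD4 and 29.6, 27.7 and 24.8 CPM in Scr. KD4 replicate 1 was the highest, the log2 fold changes were 1.36 to 1.58, and the 2 uncalled regions had 1.40 and 0.34. A run of 4 neighbouring regions, chr19:17095456-17101897, was called throughout, with log2 fold changes of 0.72 to 0.99. Its sums were 140.5, 162 and 180.5 CPM in KD4 and 86.8, 74.6 and 105 CPM in Scr.

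Runs at low levels had the largest fold changes, though at such levels a small change is unlikely to reach the threshold. The minimum count for testing could be met by the KD4 libraries alone, so the selection favoured regions of this kind. In chr19:53205245-53234852, 5 of 6 tested regions were called with log2 fold changes of 1.97 to 3.57 and mean levels of 0.58 to 1.22 CPM. They summed to 8.06, 10.3 and 7.31 CPM in KD4 and 1.36, 1.93 and 0.80 CPM in Scr, and to a mean of 5.68 CPM in KD6, 5.35 CPM in OE and 5.39 CPM in EV. The region of this run at chr19:53225023-53225282 had the largest fold change of all, with 2.31, 2.39 and 2.07 CPM in KD4 and 0.185, 0.312 and 0.0534 CPM in Scr. A Scr value of 0.0534 CPM is 1 count, so the size of this change (3.57 ± 0.415 SE, edgeR FDR = 0.00349) is poorly fixed.

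In chr8:13061400-13070496, 3 of 3 tested regions were called with log2 fold changes of 1.81 to 2.71. They summed to 10.1, 6.43 and 10.2 CPM in KD4 and 2.28, 1.25 and 1.71 CPM in Scr. KD6, OE and EV had means of 2.85, 1.64 and 1.67 CPM, so here KD4 was the high line. The other runs of at least 3 higher regions had log2 fold changes of 0.92 to 2.43.

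Among lower regions, the run with the most members was chr6:143149253-143153832, where 3 of 6 tested regions were called and all 6 were below 0. The 3 called regions summed to 39.3, 45.8 and 48.6 CPM in KD4 and 78.5, 79.1 and 76.2 CPM in Scr, with log2 fold changes of -0.92 to -0.75. The 3 others had -0.78 to -0.62. KD6, OE and EV had means of 82.4, 93.4 and 88.8 CPM, near or above Scr. The pair chr1:162533473-162533720 and chr1:162538018-162538246 had the highest level among the lower regions. It summed to 238, 252 and 220 CPM in KD4 and 453, 366 and 379 CPM in Scr, with log2 fold changes of -0.74 and -0.77. At this pair KD6, OE and EV had means of 388, 353 and 317 CPM, between the KD4 mean of 237 CPM and the Scr mean of 400 CPM.

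**Figure D4:**
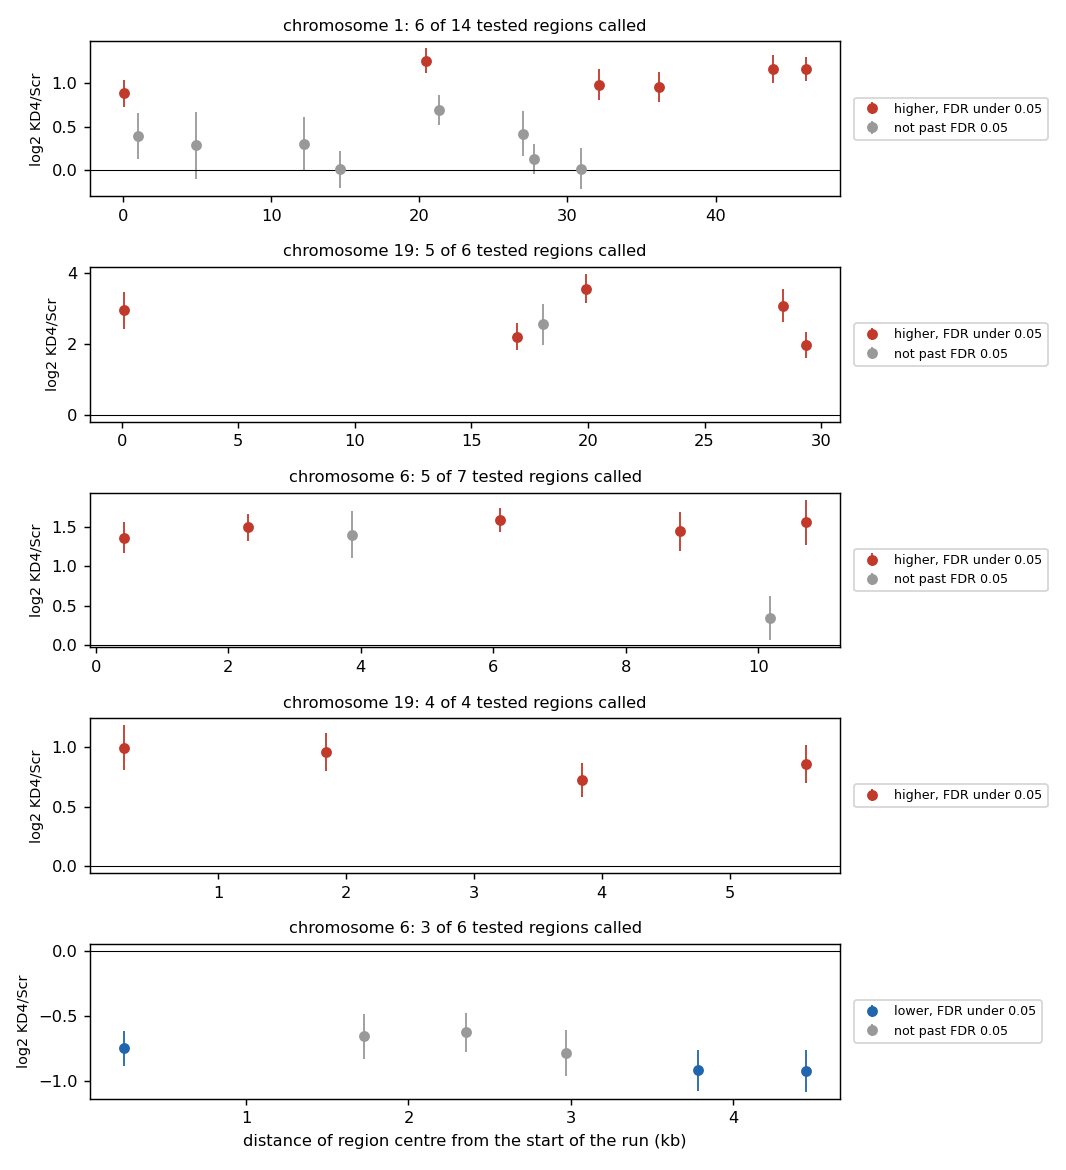
Log2 fold change of KD4 over Scr (y axis) with its standard error (bars) for each region tested within 4 runs of higher regions and 1 run of lower regions, against the distance of the region's centre from the start of the run in kb (x axis). Called regions are red (higher) or blue (lower) and uncalled ones grey. In the run on chromosome 1 the 8 grey regions lie between 0.01 and 0.69, below the 6 red ones, whereas in the run of lower regions on chromosome 6 all 6 lie between -0.92 and -0.62.

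Regions near a call that did not pass the threshold leaned in the same direction. Neighbouring regions can share fragments and signal with the call and were counted in the same libraries, so this lean is a description. Within 2 kb of a higher region, the 108 uncalled regions had a median log2 fold change of 0.73 and 98.1% of them were above 0. The median was 0.49 from 2 to 10 kb (89 regions), 0.11 from 10 to 50 kb (367 regions) and 0.03 from 50 to 200 kb (1201 regions). Around lower regions the median was -0.61 within 2 kb (27 regions), -0.23 from 2 to 10 kb (35 regions), and -0.06 both from 10 to 50 kb (131 regions) and from 50 to 200 kb (256 regions). Farther than 200 kb from a call it was -0.01 in both directions.

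The share of regions called varied over the chromosomes. The 7 chromosomes without a lower region (3, 4, 10, 13, 16, 17 and 19), grouped for that reason, held 42.0% of the higher regions (68 of 162) and 30.8% of all tested regions. Chromosome 19 had the highest share called higher, 0.836% of its 1435 regions, and chromosome 14 the lowest autosomal share, 0.0626% of 1597, with 3 lower regions. The X chromosome had 2 higher and 4 lower regions of 1470, and its share called lower, 0.272%, was the highest. Since runs put several calls at 1 place, these counts rest on fewer loci than regions. No region of the Y chromosome or the mitochondrial genome was called.

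The other lines, which did not enter the fit, show which of KD4 and Scr stood out at the called regions. The regions were chosen for a difference between KD4 and Scr, and the same KD4 and Scr values enter these counts again. Shares over all tested regions are therefore not a like baseline, and the counts are a description. Of the 162 higher regions, all 3 EV libraries lay above all 3 Scr libraries at 112 (69.1%, beside 13.2% of all tested regions). All 3 KD4 libraries lay above all 3 EV libraries at 85 (52.5%, beside 12% of all tested regions). EV fell between KD4 and Scr at 41 regions, KD4 alone stood apart at 44, Scr alone at 71, and 6 showed neither separation. The median levels at the 71 regions were 13.4 CPM in KD4, 12.8 CPM in EV and 7.49 CPM in Scr, and at the 44 regions they were 7.48, 2.69 and 3.02 CPM. The 71 and the 44 were sorted by these same levels, so the medians restate the sorting. With OE in place of EV the numbers were 41 in between, 58 with KD4 alone apart, 60 with Scr alone apart and 3 with neither. The matching shares of all tested regions were not counted for OE, so these numbers have no background beside them.

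Lower regions had another pattern. EV lay below Scr at 6 of 39 (15.4%, beside 13.1% of all tested regions), and KD4 lay below EV at 37 (94.9%, beside 12.4%). KD4 alone stood apart from EV and Scr at 32 of the 39, with median levels of 13.03 CPM in KD4, 26.4 CPM in EV and 23.3 CPM in Scr. The 32 were sorted out by these same levels, so the medians restate the sorting. With OE in place of EV, KD4 alone also stood apart at 32, and KD4 lay below OE at all 39. The shares of all tested regions with KD4 alone apart, or with KD4 below OE, were not counted. Set against the second knockdown line, KD4 lay above KD6 in all libraries at 84 of the 162 higher regions (51.9%, beside 5.81% of all tested regions) and below KD6 at 38 of the 39 lower regions (97.4%, beside 5.95%). In a fit of Scr, KD4 and KD6 as 3 groups, edgeR at FDR 0.05 called KD4 above KD6 at 8 of the 162 higher regions (beside 0.0723% of all tested regions) and below KD6 at 20 of the 39 lower ones (beside 0.151%). The KD4 libraries that set the calls enter these comparisons again, so the shares over all tested regions are not a like baseline here either. How much of each difference comes from the hairpin or the single transduced line was not tested. The selection drug was puromycin for KD4, KD6 and Scr and blasticidin for EV and OE. In comparisons with EV and OE the drug cannot be told apart from the line either.

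**Figure D5:**
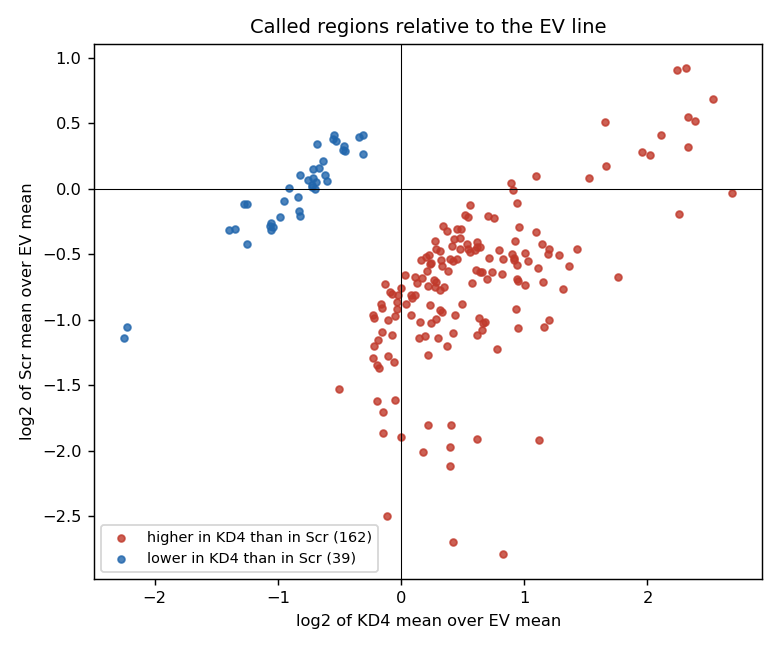
Position of the 201 called regions relative to the EV line, with the log2 ratio of the KD4 mean to the EV mean (x axis) and of the Scr mean to the EV mean (y axis), 1 point per region. Of the 162 higher regions (red), 148 lie below the horizontal zero line, where Scr is under EV, and all 39 lower regions (blue) lie left of the vertical zero line, where KD4 is under EV, 16 of them below the horizontal line.

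The regions defined for the OE and EV lines gave a second count of the same 6 libraries. They overlapped 58 of the 162 higher regions and 38 of the 39 lower ones. Where the overlap covered at least 50% of both regions, the 24 counterparts of higher regions had log2 fold changes of 0.70 to 1.81 and 14 of them were called, and the 31 counterparts of lower regions had -1.22 to -0.45 and 2 were called. No counterpart had the opposite sign, though both counts come from the same libraries.

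Some large differences rested on 1 library. At least 5 CPM and a log2 fold change of over 1.5 without a call were found at 6 regions, chosen after their values were seen, and at all 6 KD4 replicate 2 was the highest of the 15 libraries. At chr2:98496895-98497670 KD4 had 22.1, 257 and 55.7 CPM and Scr had 8.95, 23.0 and 32.1 CPM. The first KD4 library was within the Scr range and the second was far above it (log2 fold change 2.39 ± 0.65 SE, edgeR FDR = 0.152). At chr9:3024381-3024601 KD4 had 10.8, 102 and 24.9 CPM and Scr had 5.74, 9.89 and 11.6 CPM. The others lie on chromosome 12 and within 25 kb of that region on chromosome 9.

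Library-wide measures differed little. At a common depth of 16176521 counts, KD4 libraries reached the minimum of 10 counts in 43536 ± 22.5 regions and Scr libraries in 43012 ± 260.4 (SD, n = 3 each), a difference of 524 (two-sided exact permutation test, p = 0.1). Each KD4 library was above each Scr library at that minimum, but with a minimum of 20 counts the groups overlapped (difference 590.7, exact permutation p = 0.3). The mitochondrial share of counts was 3.28% ± 0.135 in KD4 and 3.49% ± 0.353 in Scr (SD, n = 3 each), and the groups overlapped (two-sided exact permutation test, p = 0.5).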

How the data were processed

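ATAC-seq was measured in 15 monolayer libraries, grouped by their labels. Per the methods, the authors used Bowtie2 for alignment to mm39 and MACS for peaks, within Partek Flow. STAR 2.7.8a is the aligner in the submitters' processing notes and RNA extraction is what the labels describe, so whether ATAC-seq reads alone were counted is uncertain. The merging of peaks and assignment of reads were not given in the sources used here. Each region has a deposited expected count with no normalization, and 95.1% of the values used were whole. Another 15 columns per table match no sample and were not used.

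Counts were rounded and tested with edgeR 4.0.16 in R 4.3.3 (TMM, filterByExpr, quasi-likelihood test, Benjamini-Hochberg FDR 0.05) over KD4 and Scr. On simulated counts the fit recovered 8% of 100 regions changed 1.5-fold and 57% of 100 changed 2-fold. Of the simulated calls 7.14% were false. Changes of such sizes can therefore be missed. CPM were scaled by TMM over all 15 libraries. Library values were compared by exact permutation tests in scipy 1.17.1. The differences of replicates are chi-square statistics per degree of freedom. Whether replicates came from separate cultures is not stated for these libraries, so p-values measure the spread between libraries, which may be technical.

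Named regions, with at least 5 CPM and groups that do not overlap, were the 8 with the smallest p and the 4 with the largest change in each direction, to which the runs were added after their values were seen. The regions and lists were chosen with earlier results of these data known. Replicate numbers did not pair the libraries (same-number correlations 0.19, 0.25 and -0.17). Gene sections, gene lists, runs within genes, markers and motifs were not used, since the genomes at hand were of other builds. Alternatives were other scalings, filters, thresholds and gaps, DESeq2 1.42.0, wider fits, a replicate block, thinned libraries, the OE regions and each library left out.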

Additional observations from a re-analysis of the deposited data

Results flagged for a closer look

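At 10 of the 20 named regions KD4 and KD6 differed, by a test of the difference between the lines in a fit of Scr, KD4 and KD6 as 3 groups (edgeR, adjusted over all regions). The regions were chosen for a KD4 value far from Scr, so the differences are not independent of that choice. Values are KD4 minus KD6 on the log2 scale. Of the 10 leading higher regions 2 differed, with 1.08 at chr8:36145152-36146533 (adjusted p = 0.00642 from edgeR) and 1.59 at chr10:62023186-62023872 (adjusted p = 0.0035 from edgeR). Of the 10 leading lower regions 8 differed. The difference was -0.93 on chromosome 6 from 72592737, -1.10 on chromosome 8 from 80390429, -0.84 on chromosome 15 from 31274019 and -0.99 on chromosome X from 67759987. It was -1.08 on chromosome 5 from 93538685, -0.69 on chromosome 9 from 66045877, and -1.50 and -1.34 on chromosome 14 from 75466689 and from 75467348. The adjusted p of these 8 was 0.00257 to 0.0497 from edgeR.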

How the results depend on the processing

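Counts of calls are given as higher, then lower, against 162 and 39. DESeq2 gave 314 and 105, the spread over all 15 libraries 374 and 120, FDR 0.01 21 and 2, and FDR 0.1 321 and 92. The spread over Scr, KD4 and KD6 gave 64 lower regions, and the OE regions gave 33 higher ones, with a median width of 278 bp. Leaving out 1 library gave 13 to 236 higher and 2 to 95 lower regions, and median widths of the higher ones of 514 to 1366 bp. The other scalings and filters, thinning and the fit without mitochondrial regions kept counts within 1.5 times. The replicate block, which rests on shared numbers alone, gave 208 and 53, with 154 and 35 of the regions called without it, and not every KD4 library correlated best with its own number. Of 340 values of the 20 named regions under alternatives 303 passed the threshold and 0 changed sign. With all 6 libraries in the fit, 219 of 220 passed. The 20 were chosen for small p or large change in those same 6 libraries, so most of these passes were built in. Over all calls, 11 higher and 2 lower regions passed in each of the 6 fits without 1 library. The widths by setting were added after seeing the data. Gene sections, runs within genes, promoter shares and motifs were not run, since no mm39 annotation or genome was used. Precision is limited by 3 libraries a group.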
